A study of Mus musculus with 12 samples.

Results

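The genes described here belong to cytokine receptor signalling: the receptor chain genes Il2ra, Il2rg, Il4ra and Il21r, the STAT transcription factor genes Stat3, Stat5a and Stat5b, and the SOCS family inhibitor genes Socs1, Socs3 and Cish. They were chosen by name, as 10 of the 55487 genes in the table, and all 10 were found. RNA was measured in splenic B cells, called naive in the labels, from Fcmr KO mice and WT mice; Fcmr encodes the Fc receptor for IgM. Every library came from cells given F(ab')2 anti-IgM, which crosslinks the B cell receptor, at 10 µg/mL. The groups were Fcmr KO cells at 6 h, WT cells at 6 h, Fcmr KO cells at 1 h and WT cells at 1 h, with 3 libraries each. The labels give no strain, age or sex of the mice, and no detail of the Fcmr allele or of the purification. There was no library of unstimulated cells, so a difference between 6 h and 1 h cannot be told apart from time in culture or from a change in the cells present.

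Cytokine receptors without a kinase of their own bind Janus kinases (JAKs), which phosphorylate STAT proteins that then enter the nucleus and activate genes. Il2rg encodes the common gamma chain, which pairs with the IL-4 receptor alpha chain (Il4ra), the IL-21 receptor (Il21r) and the IL-2 receptor alpha and beta chains (Il2ra, CD25, and Il2rb). In B cells IL-4 acts mainly through STAT6, IL-21 mainly through STAT3, and IL-2 mainly through STAT5. SOCS proteins, among them CIS (the product of Cish), are induced by STATs and dampen the same receptors.

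The promoters of Cish and Socs3 are shown first because they were the only windows of the 10 genes that held the STAT motif TTCNNNGAA, searched on both strands. The windows come from RefSeq on GRCm38.p6 and run 250 bases before to 50 bases after an annotated start; the 10 genes matched 12 windows, as Stat5a and Stat5b have 2 each. Capitals mark the motif. The Cish window lies at chr9:107296409-107296708 on the plus strand and the Socs3 window at chr11:117969317-117969616 on the minus strand.
Cish: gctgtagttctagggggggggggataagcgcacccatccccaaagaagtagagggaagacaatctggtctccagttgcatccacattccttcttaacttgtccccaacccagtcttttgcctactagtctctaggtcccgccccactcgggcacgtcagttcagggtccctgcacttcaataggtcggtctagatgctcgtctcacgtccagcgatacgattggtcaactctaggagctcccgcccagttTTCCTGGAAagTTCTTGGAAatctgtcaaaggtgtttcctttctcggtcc
Socs3: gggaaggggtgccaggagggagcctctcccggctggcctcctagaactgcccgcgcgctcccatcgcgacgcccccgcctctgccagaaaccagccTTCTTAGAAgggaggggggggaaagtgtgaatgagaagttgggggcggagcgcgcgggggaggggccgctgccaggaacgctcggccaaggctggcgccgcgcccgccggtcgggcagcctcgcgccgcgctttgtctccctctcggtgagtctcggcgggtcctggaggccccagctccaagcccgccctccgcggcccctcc
Cish held 2 matches, at bases 251 to 259 and 262 to 270 of its window, and Socs3 held 1, at bases 97 to 105. The motif occurred in 8.3% of the 32851 mouse promoter windows of the same length. The same motif with 4 rather than 3 free bases between TTC and GAA, the form STAT6 prefers, was in 6.95% of all windows, TGANTCA (AP-1) in 7.81%, TGACGTCA (CRE) in 1.79% and GCGTGGGCG (EGR) in 0.612%, and none of these occurred in the 12 windows. An NF-kB motif, GGG and TTTCC with 2 free bases between, was in 1.63% of windows, and among the 10 genes once, on the minus strand of the Il4ra window. These matches describe letters and are not evidence of binding.

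A further pair of sequences is shown because Stat5a and Stat5b, paralogs that lie 8626 bases apart on chromosome 11, were both higher at 6 h in both genotypes. In 1 window of each gene the longest shared run, picked after the windows were compared, is 16 bases and is given in capitals within 100 bases of context, at chr11:100860412-100860511 on the plus strand for Stat5a and chr11:100822534-100822633 on the minus strand for Stat5b (RefSeq, GRCm38.p6).
Stat5a: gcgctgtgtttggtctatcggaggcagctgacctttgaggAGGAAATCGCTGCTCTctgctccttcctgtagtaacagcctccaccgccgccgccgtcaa
Stat5b: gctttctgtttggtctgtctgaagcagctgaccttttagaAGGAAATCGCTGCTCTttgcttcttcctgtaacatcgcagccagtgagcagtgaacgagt
This run was found in 2 of the 32851 windows on either strand, which are these windows of Stat5a and Stat5b. As the run was picked from these windows, their place in the count was given in advance. The count describes letters and is not evidence of a shared function.

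Facts of the libraries that bear on these genes are as follows. Depth was 19260751 to 24058818 fragments per library, and a count of 3 on a 2 kb transcript would read 0.0623 to 0.0779 FPKM (fragments scaled by transcript length and library size), which is the floor and covers counting error alone. Fcmr itself averaged 44.1 ± 2.06 FPKM in KO cells and 383 ± 16.9 FPKM in WT at 6 h (mean ± SD of 3 libraries). At 1 h it averaged 49.3 ± 0.664 FPKM in KO cells against 373.1 ± 18.5 FPKM in WT, so KO cells held 11.5% and 13.2% of the WT level. The exact two-sided permutation p was 0.1 at each time, the smallest that 3 against 3 allows, and the limma log2 fold changes were -3.09 and -2.89. The labels call the libraries of a group biological replicates but tie none of them to an animal, so the p-values below describe the spread between libraries. On the second principal component, which held 5.26% of the variance, both WT libraries numbered 3 lay with the KO libraries, and the comparison of KO with WT cells is therefore also given without them below. The 10 B cell markers all reached 1 FPKM in every group, with summed levels of 1188 to 1266 FPKM in KO cells and 1189 to 1206 FPKM in WT cells at 6 h, and of 2672 to 2788 FPKM in KO cells and 2548 to 2897 FPKM in WT cells at 1 h.

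The largest differences among the 10 genes were between the times, and they were of the same kind in both genotypes. The IL-2 receptor alpha chain gene Il2ra and both STAT5 genes rose, while Il4ra, Il21r, Il2rg, Socs3 and Cish fell. Differences were tested with limma on log2(FPKM + 1) for 11841 genes whose mean over the libraries reached 1 FPKM, with Benjamini-Hochberg adjustment over all of them and a threshold of 0.05. Of the 9 genes that passed this filter, 3 were called higher and 6 lower at 6 h in KO cells, where 78.5% of all tested genes were called (50.6% higher and 27.9% lower). In WT cells 3 were called higher and 5 lower, with Stat3 not called, against 78.7% of all tested genes (49.5% higher and 29.2% lower). Most tested genes were called, so a call alone sets these genes little apart, and their ranks among all genes are given with the values below. The median log2 fold change of the 9 genes was -0.38 in KO cells and -0.35 in WT cells, beside 0.22 and 0.21 over all tested genes. Socs1 did not pass the filter and was not tested.

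**Figure D1:**
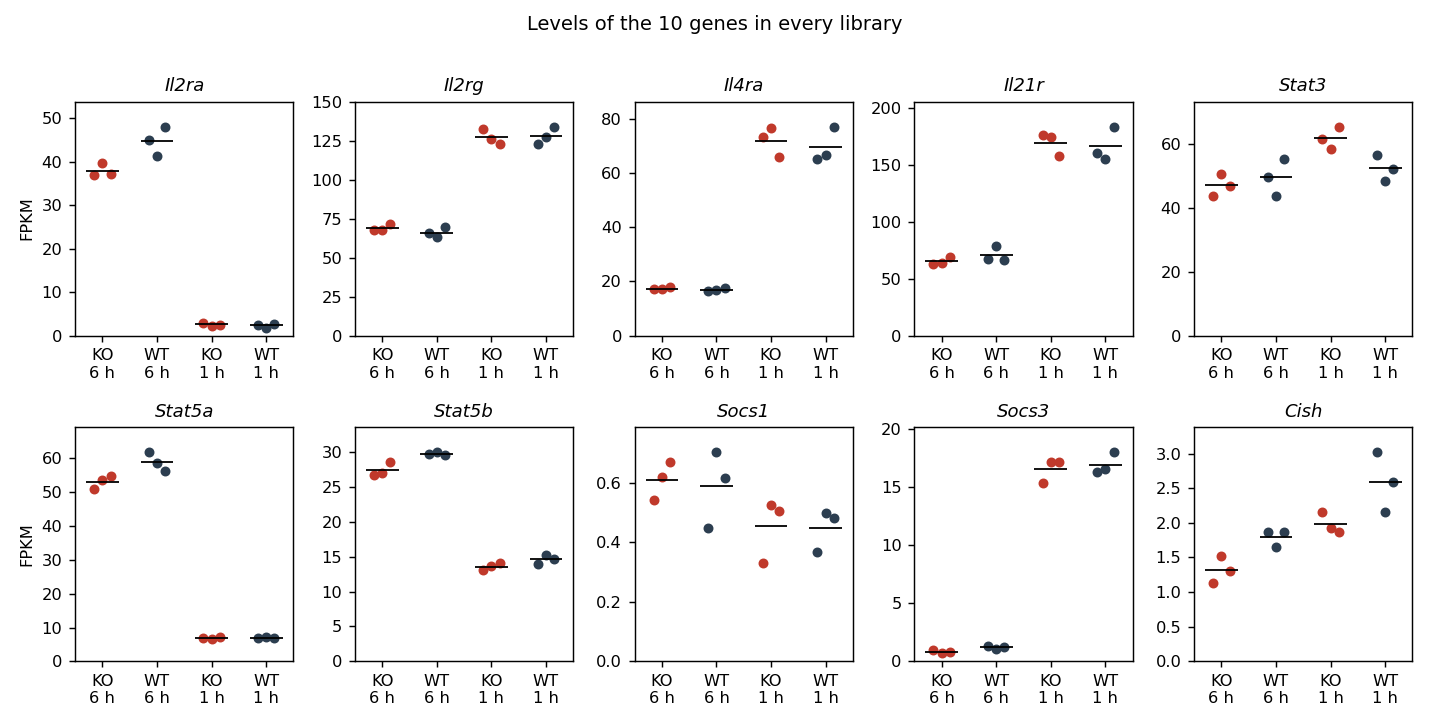
Level of each of the 10 genes in FPKM (linear axes from 0, 1 panel per gene) in KO cells (red) and WT cells (dark blue) at 6 h and at 1 h. Points are single libraries in replicate order and lines are group means (n = 3); Il2ra, Stat5a and Stat5b are high at 6 h, Il2rg, Il4ra, Il21r and Socs3 are high at 1 h, and Socs1 stays below 1 FPKM in every library.

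Il2ra (ENSMUSG00000026770, chr2:11642807-11693193, plus strand, GRCm38) encodes CD25, the chain that gives the IL-2 receptor its high affinity. Its level in KO cells was 36.8, 39.7 and 37.2 FPKM at 6 h, against 2.98, 2.25 and 2.52 FPKM at 1 h (replicates 1, 2 and 3, the order used throughout). In WT cells it was 45.0, 41.3 and 48.0 FPKM at 6 h, against 2.46, 1.81 and 2.76 FPKM at 1 h. Every 6 h library lay far above every 1 h library in both genotypes. Mean FPKM was 14.7-fold higher at 6 h in KO cells, with a log2 fold change of 3.44 (SE 0.11, limma adjusted p = 6.56e-10), the third highest of the 11841 tested genes. In WT cells it was 19.1-fold higher, with a log2 fold change of 3.78 (SE 0.11, limma adjusted p = 3.97e-10), the highest of all tested genes. The values rested on 154 to 273 fragments at 1 h and 3609 to 5089 at 6 h. A gene on the same strand, Gm37881, overlaps Il2ra by 421 bases and reached at most 3.96 FPKM.

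The partner chains of Il2ra did not share its direction. Il2rg (ENSMUSG00000031304, chrX:101264378-101268255, minus strand), the common gamma chain, was at 68.1, 67.6 and 71.6 FPKM in KO cells at 6 h, against 132.8, 126.2 and 123.3 FPKM in KO cells at 1 h. WT cells held 65.7, 63.2 and 69.7 FPKM at 6 h, against 123.1, 127.8 and 134.2 FPKM at 1 h. All 6 h libraries lay below all 1 h libraries, and Il2rg fell by 0.87 (KO, SE 0.05, limma adjusted p = 3.26e-08) and 0.94 (WT, SE 0.05, limma adjusted p = 1.73e-08) on the log2 scale. Mean FPKM at 6 h was 0.542 of that at 1 h in KO cells and 0.516 in WT cells. Il2rb, the beta chain that carries the IL-2 signal and also an NK cell marker, fell as well, with log2 fold changes of -0.78 in KO cells (limma adjusted p = 0.00018) and -0.87 in WT cells (limma adjusted p = 7.5e-05). The ratio of Il2ra to Il2rb FPKM was therefore 6.69 to 8.82 in KO cells and 6.47 to 8.11 in WT cells at 6 h, beside 0.243 to 0.328 in KO cells and 0.164 to 0.220 in WT cells at 1 h. Il2rg held 1.70 to 1.93 times the FPKM of Il2ra in KO cells and 1.45 to 1.53 times in WT cells at 6 h, and 44.5 to 56.1 times in KO cells and 48.6 to 70.5 times in WT cells at 1 h. A gene on the same strand, Gm20489, overlaps Il2rg by 3878 bases, its full span, and reached at most 0.0714 FPKM. The effect of this overlap on the level of Il2rg was not tested.

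Il4ra and Il21r lie side by side on chromosome 7, 23954 bases apart with no annotated gene between them, and both fell. Il4ra (ENSMUSG00000030748, chr7:125552120-125579474, plus strand) encodes the ligand-binding chain for IL-4. It was at 17.1, 17.2 and 17.8 FPKM in KO cells at 6 h, against 73.1, 76.3 and 65.7 FPKM in KO cells at 1 h. In WT cells the values were 16.3, 16.9 and 17.5 FPKM at 6 h and 65.0, 66.4 and 77.0 FPKM at 1 h. The times did not overlap, and mean FPKM was 4.14-fold lower at 6 h in KO cells and 4.11-fold lower in WT cells. The log2 fold changes were -1.98 (KO, SE 0.07, limma adjusted p = 1.32e-09) and -1.97 (WT, SE 0.07, limma adjusted p = 1.22e-09). A gene on the opposite strand, Gm44876, overlaps Il4ra by 1342 bases and reached at most 0.895 FPKM.

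Il21r (ENSMUSG00000030745, chr7:125603429-125633570, plus strand), the receptor through which IL-21 acts on B cells, had 62.8, 64.2 and 69.3 FPKM in KO cells at 6 h, against 176.1, 174.4 and 158.0 FPKM in KO cells at 1 h. WT cells held 67.5, 78.8 and 66.3 FPKM at 6 h, against 160.3, 155.7 and 183.9 FPKM at 1 h. It had the highest FPKM of the 10 genes at 1 h, and its 6 h libraries all lay below its 1 h libraries. The log2 fold changes were -1.36 in KO cells (SE 0.08, limma adjusted p = 5.16e-08) and -1.22 in WT cells (SE 0.08, limma adjusted p = 1.15e-07). As Il4ra fell further than Il21r, the ratio of Il21r to Il4ra FPKM was 3.67 to 3.90 in KO cells and 3.78 to 4.66 in WT cells at 6 h, beside 2.28 to 2.41 in KO cells and 2.34 to 2.47 in WT cells at 1 h.

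**Figure D2:**
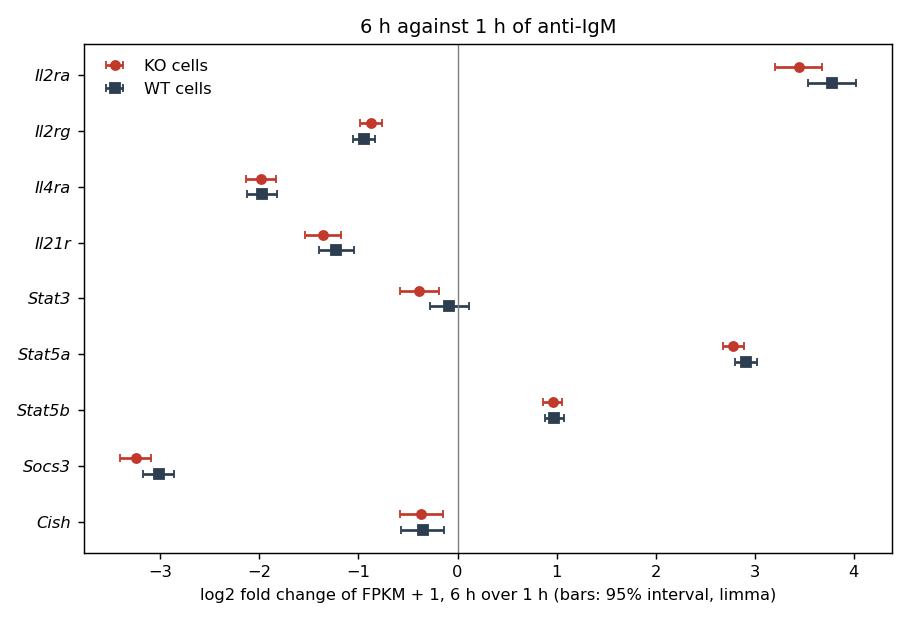
Log2 fold change of FPKM + 1 at 6 h over 1 h for the 9 genes tested, in KO cells (red circles) and WT cells (dark blue squares), with the 95% interval from limma. Il2ra, Stat5a and Stat5b lie to the right of 0 and the other genes to the left; the intervals of Il2ra reach from 3.21 to 3.68 in KO cells and from 3.54 to 4.02 in WT cells, and only the WT interval of Stat3 crosses 0.

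Among the STAT genes, Stat5a changed most. Stat5a (ENSMUSG00000004043, chr11:100859351-100885169, plus strand) encodes one of the pair of STAT5 proteins activated by IL-2 and related cytokines. Its level was 50.8, 53.6 and 54.8 FPKM in KO cells at 6 h, against 6.94, 6.49 and 7.12 FPKM in KO cells at 1 h. In WT cells it was 61.7, 58.6 and 56.2 FPKM at 6 h, against 6.88, 7.12 and 6.80 FPKM at 1 h. All 6 h libraries were several times higher than any 1 h library. Mean FPKM was 7.74-fold higher in KO cells, with a log2 fold change of 2.78 (SE 0.05, limma adjusted p = 4.77e-11, rank 13 of 11841 from the highest), and 8.48-fold higher in WT cells, with a log2 fold change of 2.91 (SE 0.05, limma adjusted p = 3.90e-11, rank 8).

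Stat5b (ENSMUSG00000020919, chr11:100780731-100850724, minus strand), the paralog with largely shared function, rose much less. KO cells held 26.7, 27.0 and 28.5 FPKM at 6 h, against 13.1, 13.6 and 14.1 FPKM at 1 h, and WT cells 29.6, 29.9 and 29.5 FPKM at 6 h, against 14.005, 15.2 and 14.6 FPKM at 1 h. The times did not overlap, with mean FPKM 2.02-fold higher in KO cells and 2.03-fold higher in WT cells. The log2 fold changes were 0.96 (KO, SE 0.04, limma adjusted p = 5.80e-09) and 0.98 (WT, SE 0.04, limma adjusted p = 5.13e-09). Because the paralogs rose unequally, their order in FPKM turned over. Stat5a made up 65.5% to 66.5% of the summed FPKM of both in KO cells and 65.6% to 67.6% in WT cells at 6 h, against 32.3% to 34.7% in KO cells and 31.7% to 33.0% in WT cells at 1 h. The sum itself was 77.5 to 83.4 FPKM in KO cells and 85.7 to 91.3 FPKM in WT cells at 6 h, against 20.0 to 21.2 FPKM in KO cells and 20.9 to 22.3 FPKM in WT cells at 1 h. Stretches of 150 bases, the read length given in the labels, that occur unchanged in both transcripts made up 4.68% of those in Stat5a and 3.56% of those in Stat5b. Reads from such stretches cannot be placed on 1 of the genes from their own sequence.

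Stat3 (ENSMUSG00000004040, chr11:100885098-100939540, minus strand), the main STAT of IL-21, IL-6 and IL-10, had the narrowest range of the 9 tested genes over the 12 libraries. That range of log2(FPKM + 1) does not measure the spread within groups. Stat3 was at 43.7, 50.5 and 46.9 FPKM in KO cells at 6 h, against 61.5, 58.2 and 65.3 FPKM in KO cells at 1 h. WT cells held 49.6, 43.8 and 55.2 FPKM at 6 h, against 56.5, 48.5 and 52.1 FPKM at 1 h. The times did not overlap in KO cells, where Stat3 fell by 0.38 on the log2 scale (SE 0.09, limma adjusted p = 0.00202), and they overlapped in WT cells, with a log2 fold change of -0.08 (SE 0.09, limma adjusted p = 0.404). With FPKM rescaled by median-of-ratios size factors, which lowers the median change of all genes by 0.18 in KO cells and 0.16 in WT cells, the WT value was -0.27 and was called (limma adjusted p = 0.0161). The change in KO cells minus that in WT cells was -0.30 (SE 0.12, limma unadjusted p = 0.0352, adjusted p = 1.00), so a difference between the genotypes did not pass the test. The ends of Stat3 and Stat5a overlap by 72 bases on opposite strands, and the strand setting used in counting is not given in the sources used here. Summed over Stat3, Stat5a and Stat5b, the Stat3 share was 36.0% to 38.5% in KO cells and 33.1% to 39.2% in WT cells at 6 h, against 74.4% to 75.5% in KO cells and 68.5% to 73.0% in WT cells at 1 h.

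**Figure D3:**
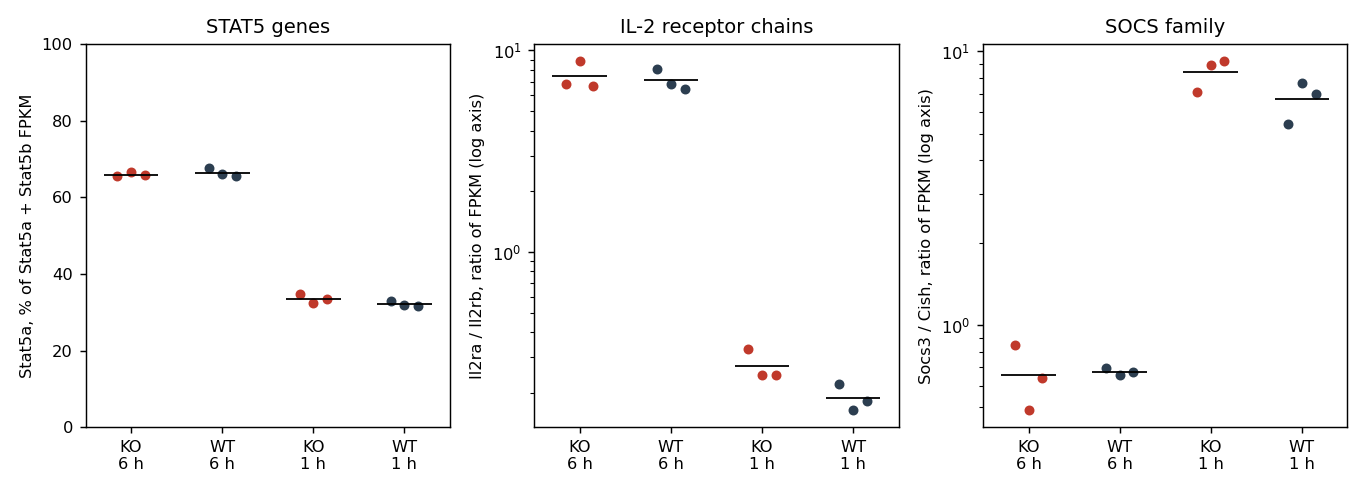
Ratios between genes in each library (points) with group means (lines, n = 3), for KO cells (red) and WT cells (dark blue) at 6 h and 1 h: the Stat5a percentage of Stat5a plus Stat5b FPKM (linear axis), Il2ra over Il2rb and Socs3 over Cish (log axes). The Stat5a share is 65.5% to 67.6% in the 6 h libraries and 31.7% to 34.7% in the 1 h libraries, and the other ratios move in opposite directions between the times.

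In the SOCS family the steepest change belonged to Socs3. Socs3 (ENSMUSG00000053113, chr11:117966079-117970047, minus strand) encodes an inhibitor of receptors that signal through STAT3. Its level was 0.96, 0.74 and 0.84 FPKM in KO cells at 6 h, against 15.4, 17.2 and 17.2 FPKM in KO cells at 1 h. WT cells held 1.31, 1.09 and 1.26 FPKM at 6 h, against 16.3, 16.5 and 18.0 FPKM at 1 h. The times were far apart in both genotypes, with mean FPKM 19.6-fold lower at 6 h in KO cells and 13.9-fold lower in WT cells. On the log2(FPKM + 1) scale, which understates a change this close to 0, Socs3 fell by 3.25 in KO cells (SE 0.07, limma adjusted p = 1.26e-10, rank 20 of 11841 from the lowest) and by 3.02 in WT cells (SE 0.07, limma adjusted p = 1.43e-10, rank 37). The 6 h values rested on 41 to 59 fragments in KO libraries and 61 to 77 in WT libraries.

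Cish (ENSMUSG00000032578, chr9:107296026-107302784, plus strand), whose product CIS acts on receptors that use STAT5, was low at both times. It was at 1.14, 1.52 and 1.31 FPKM in KO cells at 6 h, against 2.16, 1.93 and 1.87 FPKM in KO cells at 1 h. WT cells held 1.87, 1.66 and 1.87 FPKM at 6 h, against 3.02, 2.16 and 2.59 FPKM at 1 h. Within each genotype the 6 h libraries lay below the 1 h libraries, and Cish fell by 0.37 (KO, SE 0.10, limma adjusted p = 0.00553) and 0.35 (WT, SE 0.10, limma adjusted p = 0.00681). Mean FPKM at 6 h was 0.665 of that at 1 h in KO cells and 0.695 in WT cells, and the log2 scale with 1 FPKM added understates this: with a pseudocount of 0.1 the values were -0.56 in KO cells and -0.49 in WT cells. Against a minimum fold of 1.5 on the scale with 1 added, neither of these changes, nor that of Stat3 in KO cells, was called. The ratio of Socs3 to Cish FPKM was 0.490 to 0.845 in KO cells and 0.655 to 0.699 in WT cells at 6 h, against 7.12 to 9.18 in KO cells and 5.41 to 7.66 in WT cells at 1 h. On the opposite strand Gm17040 overlaps Cish by 1167 bases and Gm17041 by 1459 bases. They reached at most 0.088 and 0.104 FPKM, and the effect of these overlaps on the level of Cish was not tested.

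Socs1 (ENSMUSG00000038037, chr16:10782240-10785536, minus strand), an inhibitor of JAKs in interferon and gamma chain cytokine signalling, averaged 0.526 FPKM over the 12 libraries and fell short of the filter. Its values were 0.54, 0.62 and 0.67 FPKM in KO cells and 0.45, 0.70 and 0.62 FPKM in WT cells at 6 h, and 0.33, 0.53 and 0.51 FPKM in KO cells and 0.37, 0.50 and 0.48 FPKM in WT cells at 1 h. These are 20 to 45 fragments per library, above the floor, and of the comparisons only KO cells at 6 h against KO cells at 1 h did not overlap. The 3 SOCS genes together summed to 2.64 to 2.88 FPKM in KO cells and 3.45 to 3.74 FPKM in WT cells at 6 h, against 17.9 to 19.6 FPKM in KO cells and 19.2 to 21.1 FPKM in WT cells at 1 h.

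Replicate numbers tie libraries of a genotype across the times, and the changes per pair had the same sign in all 3 pairs of each genotype for every tested gene other than Stat3 in WT cells. On the log2 scale Il2ra rose by 3.25 to 3.65 in the KO pairs and by 3.70 to 3.91 in the WT pairs. Stat5a rose by 2.71 to 2.87 in the KO pairs and by 2.88 to 2.99 in the WT pairs. Socs3 changed by -3.38 to -3.06 in the KO pairs and by -3.07 to -2.91 in the WT pairs. Stat3 in the WT pairs ranged from -0.19 to 0.08. With the pairs as a block the calls among the 9 genes were as many, 9 in KO cells and 8 in WT cells, where 81.6% and 81.8% of all tested genes were called.

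Set in order of FPKM, the 10 genes ranked differently at 6 h and at 1 h. FPKM is scaled per length, so an order between genes also depends on the length used for each. Overlap between libraries does not cover an error in those lengths. At 6 h Il2rg and Il21r were highest and overlapped in both genotypes, followed by Stat5a, Stat3, Il2ra, Stat5b, Il4ra, Cish, Socs3 and Socs1. Their neighbours in this order did not overlap, except Stat3 and Il2ra in WT cells. At 1 h the order was Il21r, Il2rg, Il4ra, Stat3, Socs3, Stat5b and Stat5a in both genotypes, with no overlap between neighbours. Below these, Il2ra preceded Cish in KO cells without overlap, Cish and Il2ra overlapped in WT cells, and Socs1 was lowest. Over the 12 libraries the range of log2(FPKM + 1) was widest for Il2ra (4.12), followed by Socs3 (3.45), Stat5a (3.07) and Il4ra (2.18), and narrowest for Stat3 (0.57).

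**Figure D4:**
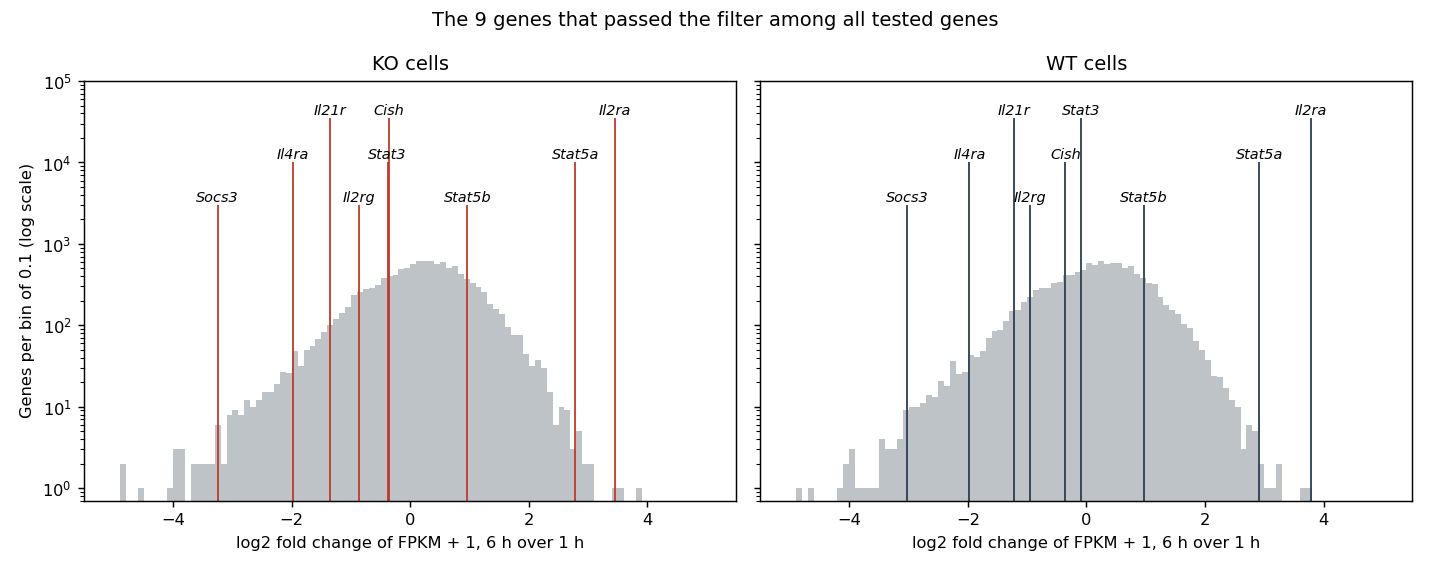
Distribution of the log2 fold change of FPKM + 1 at 6 h over 1 h for all 11841 tested genes (grey, genes per bin of 0.1, log axis) in KO cells and WT cells, with vertical lines at the 9 genes tested. Il2ra at 3.44 in KO cells and 3.78 in WT cells and Stat5a at 2.78 and 2.91 lie in the right tail and Socs3 at -3.25 and -3.02 in the left tail; line heights only separate the names.

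For the 4 genes of widest range, the genes of most similar course were found by the root mean square difference of centred log2(FPKM + 1) over the 12 libraries, among 10053 tested genes with a proper symbol. Nearest to Il2ra were Dctd at 0.21, Slc19a1 at 0.24 and Mreg at 0.30. Nearest to Socs3 were Vps37b at 0.13, Gch1 at 0.14 and Ildr1 at 0.15. Stat5a was approached by Slc29a2 at 0.11, Tmem97 at 0.12 and Ppa1 at 0.12. Il4ra had closer neighbours, with Cobll1 at 0.06, Mapk11 at 0.07 and Itprip at 0.07. Mean levels of Dctd were 70.9 FPKM in KO cells and 71.0 FPKM in WT cells at 6 h, and 4.04 FPKM in KO cells and 4.87 FPKM in WT cells at 1 h. For Vps37b they were 14.8 FPKM in KO cells and 15.3 FPKM in WT cells at 6 h, and 145.6 FPKM in KO cells and 154.1 FPKM in WT cells at 1 h. All of these likenesses rest on the same 12 libraries and mainly on the step between the times.

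Between the genotypes no gene of the 9 passed the test, and at 6 h 5 of them lay lower in every KO library than in every WT library, as did 6.97% of all tested genes. In KO against WT cells 0 of the 9 tested genes were called at 6 h and 0 at 1 h by limma, where 0.228% and 0.524% of all tested genes passed. Before adjustment 4 of the 9 at 6 h and 3 at 1 h had a limma p under 0.05, as did 894 and 1339 of the 11841 tested genes. The limma adjusted p of the 9 genes ran from 0.277 to 0.915 at 6 h and from 0.330 to 0.965 at 1 h. With limma voom on recovered fragments, an alternative chosen after seeing the data, 0 were called at either time.

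At 6 h the 3 KO libraries lay below the 3 WT libraries without overlap for 5 of the 9 genes, Il2ra, Stat5a, Stat5b, Socs3 and Cish, and above them for 0. Of all tested genes 6.97% lay wholly lower in this way, 8.1% wholly higher and 15.1% were separated in either direction. After each library was rescaled to the same sum of FPKM, 4 remained, as Il2ra then overlapped, beside 7.3% of all tested genes wholly lower and 6.65% wholly higher. Socs3 had the smallest p of the 9: mean FPKM in KO cells was 0.696 of that in WT cells, with a log2 fold change of -0.26 (SE 0.07, 95% interval -0.42 to -0.11, limma unadjusted p = 0.00322, adjusted p = 0.277). The added 1 FPKM makes this Socs3 value smaller. Over the 25 alternatives it reached -0.52 and was called in none. For Cish mean FPKM in KO cells was 0.734 of that in WT cells. Its log2 fold change was -0.27 (95% interval -0.49 to -0.05, limma adjusted p = 0.480), which the added 1 FPKM makes smaller at this level, as it was -0.42 with a pseudocount of 0.1 and -0.46 with limma voom, not called in either. Il2ra had a log2 fold change of -0.23 (95% interval -0.47 to 0.01, limma adjusted p = 0.669). The STAT5 genes had smaller values with narrower intervals, -0.15 for Stat5a (95% interval -0.25 to -0.04, limma adjusted p = 0.436) and -0.11 for Stat5b (95% interval -0.21 to -0.02, limma adjusted p = 0.533). Il2rg at 0.06, Il4ra at 0.04, Il21r at -0.11 and Stat3 at -0.07 overlapped between the genotypes. The median over the 9 genes was -0.11, beside 0.002 over all tested genes.

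At 1 h Stat3 was the 1 gene of the 9 without overlap, higher in KO cells. Of all tested genes 6.25% lay wholly higher, 8.59% wholly lower and 14.8% were separated in either direction. Its log2 fold change was 0.23 (SE 0.09, 95% interval 0.04 to 0.43, limma unadjusted p = 0.0237, adjusted p = 0.330). Cish at -0.26 (limma adjusted p = 0.332) and Stat5b at -0.10 (limma adjusted p = 0.420) had an unadjusted p under 0.05 but overlapping libraries. After each library was rescaled to the same sum of FPKM, Stat3 still lay wholly higher and Stat5b lay wholly lower, where 3.97% of all tested genes lay wholly higher and 10.4% wholly lower. Of the other genes, Il2ra at 0.10, Il2rg at -0.01, Il4ra at 0.05, Il21r at 0.03, Stat5a at -0.02 and Socs3 at -0.03 overlapped between the genotypes. The median over the 9 genes was -0.01, as over all tested genes. For Il2ra, Il2rg, Il21r, Stat5a and Socs3 the sign at 1 h turned when single libraries were left out, and for Il2rg and Stat5a also with median-of-ratios scaling.

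The change over time in KO cells minus that in WT cells was called for 0 of the 9 genes by limma, where 0.0253% of all tested genes were called. A limma unadjusted p under 0.05 was found for 537 of the 11841 tested genes and for 2 of the 9. These were Stat3, given above, and Socs3 at -0.23 (SE 0.10, limma unadjusted p = 0.0385, adjusted p = 1.00). Over the 24 alternatives the Socs3 difference reached -0.48 and was called in none. Il2ra had a difference of -0.34 (SE 0.15, limma unadjusted p = 0.0503, adjusted p = 1.00). With limma voom the count was 0 as well.

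**Figure D5:**
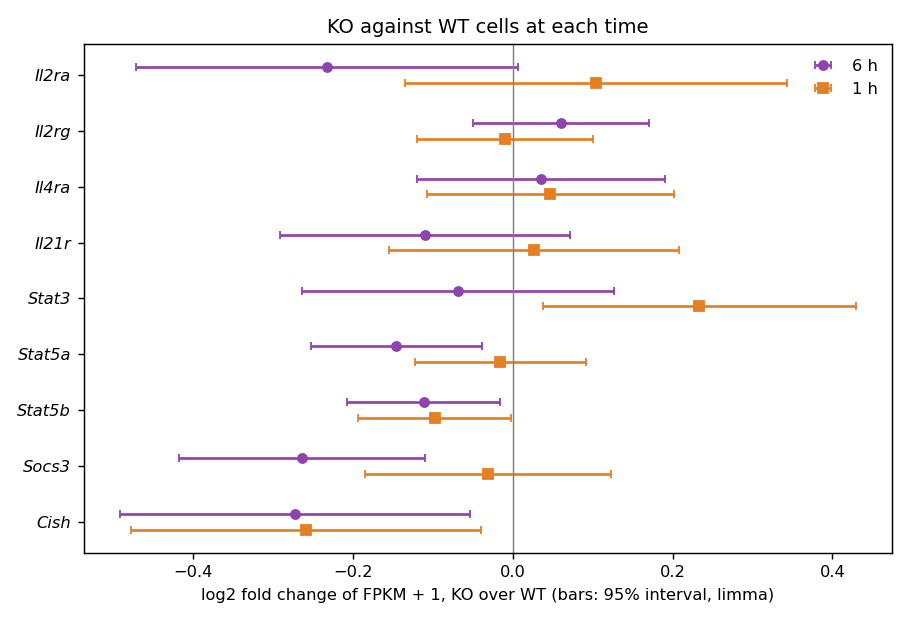
Log2 fold change of FPKM + 1 in KO over WT cells for the 9 genes tested, at 6 h (purple circles) and 1 h (orange squares), with the 95% interval from limma before adjustment over genes. All values lie between -0.27 and 0.23. At 6 h the intervals of Stat5a, Stat5b, Socs3 and Cish lie below 0. At 1 h those of Stat5b and Cish lie below 0 and that of Stat3 lies above 0. After adjustment over all tested genes none was called at either time.

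The other genes of the pathway were read from lists that, like the 10 genes, were written with earlier results of these data known. The counts at an unadjusted p under 0.05 between KO and WT cells below have a background over all genes. By limma 894 of the 11841 tested genes had such a p at 6 h and 1339 at 1 h. The counts called at 6 h against 1 h have a background too. In KO cells 50.6% of all tested genes were called higher and 27.9% lower, and in WT cells 49.5% and 29.2%. Of 33 other cytokine receptor chains 25 passed the filter. At 6 h 5 were called higher and 17 lower in KO cells, and 6 higher and 15 lower in WT cells, with a median log2 fold change of -0.48 in KO cells and -0.63 in WT cells. The fall of Il4ra, Il21r and Il2rg was thus shared by most of the tested receptor genes. Il10ra, the ligand-binding chain for IL-10, fell by 2.43 in KO cells and 2.40 in WT cells (limma adjusted p = 3.75e-10 in KO cells). Il6st, which encodes the shared signal chain gp130, fell by 1.41 in KO cells and 1.31 in WT cells, and the interferon gamma receptor gene Ifngr1 had log2 fold changes of -1.37 in KO cells and -1.21 in WT cells. Il15ra, which encodes the closest relative of the IL-2 receptor alpha chain, went with Il2ra and rose by 1.60 in KO cells and 1.84 in WT cells. Between KO and WT cells 0 of the 25 were called at either time by limma, with 8 at an unadjusted p under 0.05 at 6 h and 9 at 1 h. With limma voom 1 was called lower at 1 h, the IL-9 receptor gene Il9r, and 0 at 6 h. Il9r was also the 1 gene called lower at 1 h by limma with the replicate block. The same call was made without WT 6 h replicate 1 and without WT 6 h replicate 2. Without both WT libraries numbered 3, limma called 1 lower at 1 h, Csf3r, and 1 higher at 6 h, Il5ra. Fitted on the compared groups alone, it called Csf1r lower at 1 h. Csf3r is also a neutrophil marker and Csf1r a macrophage and monocyte marker. The WT libraries numbered 3 had the lowest neutrophil sums of the WT libraries. The part of those cells in the values of Csf3r and Csf1r was not tested.

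All 9 of the JAK kinases and other STAT pathway genes passed the filter. At 6 h 4 were called higher and 4 lower in KO cells, and 4 higher and 3 lower in WT cells, with medians of -0.001 in KO cells and 0.05 in WT cells. Of all tested genes 78.5% were called in KO cells and 78.7% in WT cells, so a call sets these genes little apart. Jak1 and Jak3, the kinases bound to the beta or alpha chains and to the common gamma chain, fell together: Jak1 by 0.84 in KO cells and 0.83 in WT cells, and Jak3 by 1.04 in KO cells and 1.15 in WT cells. Stat6, the STAT of IL-4, rose by 0.32 in KO cells (limma adjusted p = 2.41e-05) and 0.39 in WT cells (limma adjusted p = 4.68e-06), while the receptor gene Il4ra fell. With median-of-ratios scaling 2 were called higher and 4 lower in KO cells, and 3 higher and 4 lower in WT cells, with Jak1, Jak3 and Stat6 still called. None of the 9 was called between KO and WT cells by limma at either time, with 1 at an unadjusted p under 0.05 at 6 h and 0 at 1 h, and none with limma voom.

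Of 19 other SOCS and JAK-STAT regulators 18 passed the filter, and they were called in both directions. At 6 h 9 were called higher and 6 lower in KO cells, and 9 higher and 7 lower in WT cells, with medians of 0.17 and 0.20. The shares of all tested genes were 50.6% higher and 27.9% lower in KO cells, and 49.5% and 29.2% in WT cells. With median-of-ratios scaling 6 were higher and 8 lower in each genotype. Ptprc, which encodes the phosphatase CD45, fell by 1.63 in KO cells and 1.55 in WT cells, and Sh2b3, an adaptor that restrains JAK2, fell by 0.74 in KO cells and in WT cells. Among KO against WT comparisons 0 were called by limma, with 2 at an unadjusted p under 0.05 at each time, and with limma voom 1 was called higher at 1 h, the phosphatase gene Ptpn11.

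All 24 genes listed as known to respond to STATs passed the filter, among them genes that the B cell receptor also induces. At 6 h 5 were called higher and 17 lower in KO cells, and 5 higher and 15 lower in WT cells, with medians of -0.79 and -0.78. The shares of all tested genes were 50.6% higher and 27.9% lower in KO cells, and 49.5% and 29.2% in WT cells. Those that rose in both genotypes were Bcl2l1, Il4i1, Batf, Osm and Pim2; Batf, the gene of an AP-1 family factor, rose by 1.54 in KO cells and 1.79 in WT cells. The log2 fold changes of Myc were -1.496 in KO cells and -1.599 in WT cells, and those of Junb -2.35 in KO cells and -2.32 in WT cells. Between KO and WT cells 1 was called lower at 6 h, the kinase gene Pim1, with a log2 fold change of -0.60 (SE 0.06, limma adjusted p = 0.00301), and 0 were called at 1 h, where 6 had an unadjusted p under 0.05. Against a minimum fold of 1.5 Pim1 was not called. At 1 h the log2 fold change of Pim1 was -0.25 (SE 0.06, limma adjusted p = 0.140).

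Of 20 cytokine ligands 6 passed the filter. Il10 had log2 fold changes of -1.84 in KO cells and -1.88 in WT cells and Il6 of -1.67 in KO cells and -1.30 in WT cells, and in all 2 were called higher and 4 lower in KO cells, and 1 higher and 3 lower in WT cells. Beside these, 78.5% of all tested genes were called in KO cells and 78.7% in WT cells. The ligands of the receptors described here were near or below the floor in most libraries: Il2 reached at most 0.121 FPKM and Il21 at most 0.0628 FPKM, while Il4 reached 1.98 FPKM in 1 library. None of the 6 was called between KO and WT cells by limma at either time, with 1 at an unadjusted p under 0.05 at each, and none with limma voom.

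Markers of other cells were present, and some of those cells express the genes described. In such bulk samples fewer cells of a type and less RNA per cell cannot be told apart. The 14 T cell markers summed to 69.0 to 81.6 FPKM in KO cells and 67.6 to 75.4 FPKM in WT cells at 6 h, and to 67.8 to 82.6 FPKM in KO cells and 73.9 to 80.2 FPKM in WT cells at 1 h. Much of each sum was Lck, at 45.4 to 49.6 FPKM in KO cells and 34.1 to 45.4 FPKM in WT cells at 6 h, and 35.0 to 37.8 FPKM in KO cells and 27.2 to 28.1 FPKM in WT cells at 1 h. Taken singly, 2 of the 14 lay wholly higher and 6 wholly lower at 6 h than at 1 h in KO cells, and 1 higher and 10 lower in WT cells. Between the genotypes 1 lay wholly higher and 5 wholly lower in KO than in WT cells at 6 h, and 1 higher and 6 lower at 1 h. Foxp3, the defining marker of regulatory T cells, which express Il2ra, was at 0.10 to 0.37 FPKM in KO cells and 0.24 to 0.30 FPKM in WT cells at 6 h, and 0.22 to 0.44 FPKM in KO cells and 0.24 to 0.41 FPKM in WT cells at 1 h. The part of T cells in the values of Il2ra was not tested. The 10 NK cell markers, Il2rb among them, summed to 43.1 to 44.5 FPKM in KO cells and 45.5 to 68.4 FPKM in WT cells at 6 h, and to 82.7 to 90.9 FPKM in KO cells and 88.6 to 146.6 FPKM in WT cells at 1 h. The highest NK sum at each time belonged to the WT library numbered 3, which also had the highest Il2rb, 7.43 FPKM at 6 h and 15.1 FPKM at 1 h.

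Summed markers lay lower in KO than in WT cells without overlap for NK cells at 6 h, and for macrophages and monocytes and for marginal zone B cells at 1 h. Of the 10 NK cell markers taken singly, 2 lay wholly lower in KO cells at 6 h, 0 wholly higher, and 8 overlapped. The counts at 1 h were 3, 0 and 7. The 13 macrophage and monocyte markers summed to 86.8 to 126.7 FPKM in KO cells and 124.0 to 213.6 FPKM in WT cells at 6 h, and to 273.0 to 328.5 FPKM in KO cells and 425.1 to 562.4 FPKM in WT cells at 1 h. Although the sums overlapped at 6 h, 8 of the 13 markers taken singly lay wholly lower in KO cells then and 0 wholly higher. At 1 h 10 lay wholly lower and 0 wholly higher. The 10 neutrophil markers summed to 15.8 to 42.9 FPKM in KO cells and 17.1 to 384.9 FPKM in WT cells at 6 h, and to 26.2 to 71.9 FPKM in KO cells and 58.0 to 853.2 FPKM in WT cells at 1 h. The 9 marginal zone B cell markers summed to 162.6 to 172.1 FPKM in KO cells and 169.4 to 177.3 FPKM in WT cells at 6 h, and to 251.5 to 280.6 FPKM in KO cells and 332.6 to 356.1 FPKM in WT cells at 1 h. Singly, 3 of these 9 lay wholly lower in KO cells and 1 wholly higher at 6 h, and all 9 lay wholly lower at 1 h. Markers of dendritic cells summed to 12.4 to 25.8 FPKM over the 12 libraries, of red cells to 297.0 to 1859 FPKM and of plasma cells to 376.5 to 1406 FPKM. No marker was at 0 throughout a group. The part of these and of NK and T cells in the values of Stat3, Stat5a, Stat5b, Socs3, Cish and Il2ra in KO against WT cells was not tested. Without both WT libraries numbered 3, whose neutrophil sums were the lowest of the WT libraries, the same 5 genes lay lower in KO cells at 6 h without overlap, where 16.5% of all tested genes did so. Il2rg and Il4ra then lay higher without overlap, where 18.7% of all tested genes did so, and 0 of the 9 were called.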

How the data were processed

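Poly-A RNA of 12 libraries, 3 per group, was given by the authors as FPKM, fragments scaled by transcript length and library size, and the deposited FPKM table has 55487 genes. Per the submitters' processing notes the genome build was mm10, reads were aligned with STAR and counted with HTSeq; versions, the annotation, gene lengths and the strand setting are not given in the sources used here. Per the labels' protocols the kit marks strand. All 12 columns were used and 0 were left out. GENCODE vM21, whose build GRCm38 is that of mm10, gave symbols and positions for 55141 genes.

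Tests used log2(FPKM + 1) values and limma 3.58.1 in R 4.3.3, with 1 mean per group, a variance trend, two-sided, and p-values were adjusted by Benjamini-Hochberg over 11841 genes, those whose mean over the libraries reached 1 FPKM. The test code was checked on simulated data with independent libraries and shifts in KO cells at 6 h alone. That check does not cover paired libraries or changes over time in most genes. Fold changes called "mean FPKM" are ratios of group means without the added 1. As the table holds FPKM, no count test was the main test. Taken times the length of an annotated transcript, 99.01% of tested genes had values that were whole multiples of 1 fragment (within 0.01, or 1e-05 of the count), which gave the depths and fragment numbers and, chosen after seeing the data, a limma voom fit. Other alternatives changed the pseudocount, filter, scaling, libraries, moderation, minimum fold and block.

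The 10 genes and all lists were chosen with earlier results of these data known. From each list at most the 6 genes of smallest p were named, with Jak1, Jak3, Il2rb and Stat6 as partners; likeness was taken for the 4 genes of widest range, 3 neighbours each. Genes named because a count was 5 or fewer, and the ligands Il2, Il4 and Il21, were chosen after their values were seen.

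Whether replicate numbers pair libraries was read from correlations of deviations from group means. Libraries of a genotype with the same number correlated at 0.365 to 0.476 between times in KO cells and 0.338 to 0.547 in WT cells, against -0.279 to -0.132 and -0.368 to 0.017 for unlike numbers, so numbers pair the times. Between KO and WT cells these values were -0.075 to 0.01 at 6 h and -0.15 to 0.248 at 1 h, so the genotypes are not paired.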

Additional observations from a re-analysis of the deposited data

How the results depend on the processing

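Over 25 alternatives (24 for the difference in the change over time) 0 of the 9 genes were called between KO and WT cells or in that difference; at 6 h against 1 h 7 to 9 were called in KO cells and 7 to 9 in WT cells. Of 1111 values under alternatives, 1076 kept their direction and side of the threshold, 3 lost a call (Stat3 in KO cells and Cish in both genotypes, with a minimum fold of 1.5), 1 gained one (Stat3 in WT cells, median-of-ratios scaling) and 31 changed sign. Of the 9 genes, 9 and 8 were called over time with the replicate block, 0 between genotypes and 0 in the difference, and no call among the 9 genes changed. With a filter at a mean of 5 FPKM Cish gave no value. Calls over all tested genes ranged from 2 to 64 (KO against WT at 6 h, 27 as reported), 4 to 191 (1 h, 62), 4053 to 11253 (over time in KO cells, 9292), 4148 to 11614 (WT cells, 9324) and 0 to 21 (difference, 3). The highest counts over time and in the difference came without a filter, where 27935 genes were tested. They were 40.3% of those genes in KO cells, 41.6% in WT cells and 0.0752% in the difference. Genes whose times did not overlap were 52.9% higher and 29.6% lower in KO cells and 49.8% and 29.2% in WT cells as deposited, and 43.7% and 38% in KO cells and 42% and 35.9% in WT cells with median-of-ratios scaling; the 9 genes kept the same split.

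The sign changes were all in values near 0 that were not called, and their cause was not tested. Leaving out 1 library at a time, KO against WT at 1 h ranged from -0.015 to 0.20 for Il2ra, -0.040 to 0.022 for Il2rg, -0.020 to 0.099 for Il21r, -0.041 to 0.018 for Stat5a and -0.057 to 0.018 for Socs3. KO against WT at 6 h ranged from -0.15 to 0.011 for Stat3, and 6 h against 1 h in WT cells from -0.16 to 0.0015 for Stat3. The difference in the change over time ranged from -0.087 to 0.034 for Il4ra, -0.042 to 0.015 for Stat5b and -0.098 to 0.075 for Cish. With median-of-ratios scaling the 1 h values were 0.011 for Il2rg and 0.0028 for Stat5a. Without both WT libraries numbered 3 they were 0.022 for Il2rg and 0.010 for Socs3, the 6 h value of Stat3 was 0.011 and the difference for Cish 0.0014. With each library rescaled to the same sum of FPKM, the difference for Il4ra was 0.00051. With 20 to 45 fragments per library Socs1, and with 41 to 77 at 6 h Socs3, are the values that depth limits most.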
